A study of Mus musculus with 4 samples.

Results

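The 9 genes described here encode enzymes that make heme (Alas1, Alad, Uros, Urod, Cpox, Ppox and Fech) or degrade it (Hmox1 and Blvrb). They were chosen by name, and every probe set annotated to them was read, 15 of the 22690 probe sets on the array, which name 12394 genes. Gonadal white adipose tissue (WAT) was taken from male C57BL/6J mice of age 3 months on a normal chow diet. The FSP27-deficient group was the Fsp27 knockout, which lacks fat-specific protein 27 (FSP27), a protein of the lipid droplet encoded by Cidec, and the other group was wild-type. The sources do not state how the knockout was made. Equal amounts of total RNA from 5 mice of each genotype were combined into 1 pool (45 μg), and each pool was hybridised in duplicate to Affymetrix arrays, which gave 2 FSP27-deficient and 2 wild-type arrays. Both arrays of a genotype carried the same RNA, so that p-values here take in technical differences between hybridizations and none between animals, and their small number limits the precision. The arrays were made to compare gene expression in WAT between the genotypes.

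Heme is an iron-bearing porphyrin that cytochromes, catalase and cytochrome P450 enzymes hold as their working group. Its synthesis starts in mitochondria, where glycine and succinyl-CoA are joined, passes through the cytosol, and ends in mitochondria again, where iron is inserted. Heme oxygenase opens the ring into biliverdin, carbon monoxide and iron, and biliverdin reductases turn biliverdin into bilirubin.

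The values are intensities on a linear scale, called signals by the scanner maker's software (GCOS). Median signals of all probe sets were 181.1 and 164.8 in FSP27-deficient WAT, against 192.8 and 172.4 in wild-type WAT, and the lower quartiles were 55.9 and 53.8 in FSP27-deficient WAT, against 64.1 and 52.7 in wild-type WAT. A gene's value is that of its brightest probe set. limma was run on log2(signal + 16) over the 8523 genes whose signal averaged at least 100, and a fold change on that scale is smaller than the true one where signals are low. Cidec itself gave 8564 and 8949 in FSP27-deficient WAT, against 20491 and 18255 in wild-type WAT. The place of its probes relative to the deletion is not stated in the sources. Adipocyte markers were bright in every array, as for Adipoq, the gene of the fat hormone adiponectin, at 50496 and 54068 in FSP27-deficient WAT, against 44423 and 48824 in wild-type WAT.

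Alas1 and Urod were higher in FSP27-deficient WAT, by 2.43-fold and 2.44-fold in mean signal, and were the only members that passed the test. Of the 9 members, 8 were tested, as Cpox stayed below the filter on low signals. An adjusted p under 0.05 was reached by 2 of these 8, both higher and none lower, where 12.3% of all genes tested were called, 5.78% as higher and 6.51% as lower. In 6 of the 8, each signal of FSP27-deficient WAT exceeded each one of wild-type WAT, an order that held for 22.7% of all genes tested, while the opposite order held for 31.4%. The other 2, Uros and Blvrb, overlapped between genotypes. Both calls were lost where limma's variance was not allowed to follow the signal (adjusted p = 0.074 for Alas1 and 0.096 for Urod), and with the unmoderated test of the study's methods, called the methods' test here (0.24 and 0.30 after adjustment). The median log2 fold change of the 8 was 0.44, against -0.08 over all genes tested.

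**Figure D1:**
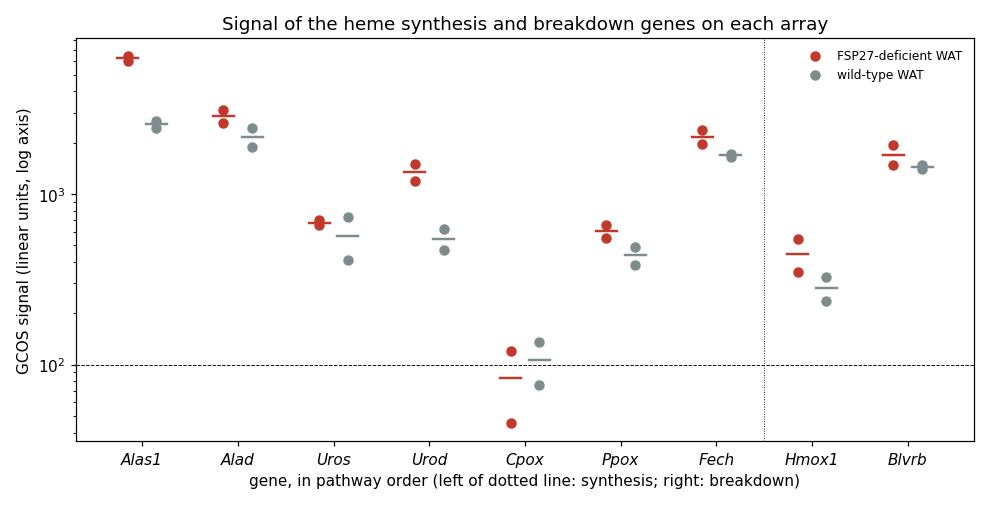
GCOS signal on a log axis for the 9 genes in pathway order, each array drawn as 1 dot and each genotype's mean as a short bar (red, FSP27-deficient WAT, and grey, wild-type WAT), and a dashed line at the signal of 100 needed for the test. The Alas1 dots of FSP27-deficient WAT, at 6426 and 6032, lie far above those of wild-type WAT, at 2432 and 2695. Heights of different genes come from different probes and are not comparable.

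Alas1 encodes the housekeeping form of 5-aminolevulinate synthase, the mitochondrial enzyme that catalyses the first and usually rate-limiting step and is held down by heme itself. Its signal was 6426 and 6032 in FSP27-deficient WAT, against 2432 and 2695 in wild-type WAT. The gap between genotypes was far wider than that between duplicates, which differed by 1.07-fold in FSP27-deficient and by 1.11-fold in wild-type WAT. The log2 fold change was 1.28 (standard error 0.17, 95% interval 0.91 to 1.64, adjusted p = 5.2e-04 from limma), and 167 of the 8523 genes tested had a larger one. A second, dimmer probe set of Alas1 gave 1066 and 756 in FSP27-deficient WAT, against 313 and 448 in wild-type WAT, a ratio of 2.40 (1.23 on the log2 scale, standard error 0.26, adjusted p = 0.010 among 13225 probe sets). Over all probe sets tested 10.6% were called, 5.06% as higher, and of the members' 15 probe sets 11 were tested and 3 were called, those of Alas1 and the single one of Urod, all higher. The 2 probe sets of Alas1 thus gave nearly the same ratio at very different brightness. Alas2 encodes the erythroid form of the enzyme, which serves hemoglobin synthesis in red cell precursors, and it is not among the 9. It gave 338 and 263 in FSP27-deficient WAT, against 333 and 365 in wild-type WAT, with overlap, and a log2 fold change of -0.21 (95% interval -0.81 to 0.38, adjusted p = 0.69).

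The promoter of Alas1 is shown because this gene had the clearest change of the 9 and because the window holds the recognition letters of NRF1, a factor known to act on genes of mitochondrial function. The sequence is RefSeq's, build GRCm38.p6, chr9:106247681-106247980, minus strand, 250 bases before to 50 bases after the start site, and capitals mark matches, on either strand, to GCGCA and GCGC parted by 1 base of any kind.
Alas1: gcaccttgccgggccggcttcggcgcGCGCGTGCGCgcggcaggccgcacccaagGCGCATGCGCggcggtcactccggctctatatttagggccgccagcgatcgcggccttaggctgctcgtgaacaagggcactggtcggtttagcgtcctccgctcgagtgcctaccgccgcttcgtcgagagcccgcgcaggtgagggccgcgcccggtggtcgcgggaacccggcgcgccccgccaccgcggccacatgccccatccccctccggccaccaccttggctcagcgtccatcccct
The matches, 2 in number, begin 224 and 195 bases before this start site, and they fall at and after a second start site that RefSeq gives for the gene. Of 32544 promoter windows of the same length, 4.63% held this motif. RefSeq gave 11 windows for the 7 members searched, and 3 of them, both of Alas1 and 1 of Uros, held it. The windows of Alas1 overlap and hold the same 2 matches, so that by gene 2 of the 7 had the motif.

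Alad encodes the cytosolic enzyme that joins 5-aminolevulinate molecules into porphobilinogen. Its signal was 3117 and 2617 in FSP27-deficient WAT, against 2454 and 1890.1 in wild-type WAT. The lower FSP27-deficient array stood only slightly above the higher wild-type one. This was a log2 fold change of 0.40 (95% interval -0.02 to 0.83, adjusted p = 0.22 from limma).

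Uros encodes the cytosolic uroporphyrinogen III synthase, which closes the ring. It gave 659.5 and 700.35 in FSP27-deficient WAT, against 730 and 412 in wild-type WAT. The FSP27-deficient arrays lay between the wild-type ones, which differed by 1.77-fold. The log2 fold change was 0.30 (95% interval -0.29 to 0.89, adjusted p = 0.55), and without wild-type replicate 2 it was -0.10.

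Urod encodes uroporphyrinogen decarboxylase, which removes carboxyl groups from the ring and is the last cytosolic enzyme of the route. Its signal was 1491 and 1191 in FSP27-deficient WAT, against 473 and 625 in wild-type WAT. No array of either genotype came near those of the other, and the ratio was 3.16 between the arrays numbered 1 and 1.91 between those numbered 2. The log2 fold change was 1.27 (standard error 0.23, 95% interval 0.77 to 1.77, adjusted p = 0.0035 from limma), next to Alas1 in the order of fold changes over all genes tested. Without wild-type replicate 1 the adjusted p was 0.0496, with a log2 fold change of 1.07. The gene has 1 probe set on the array, so that no other probes bear on it.

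The promoter of Urod is shown as that of the other member that passed the test. It is RefSeq's, build GRCm38.p6, chr4:116994364-116994663, minus strand, over the same 250 and 50 bases, with the E-box CACGTG in capitals.
Urod: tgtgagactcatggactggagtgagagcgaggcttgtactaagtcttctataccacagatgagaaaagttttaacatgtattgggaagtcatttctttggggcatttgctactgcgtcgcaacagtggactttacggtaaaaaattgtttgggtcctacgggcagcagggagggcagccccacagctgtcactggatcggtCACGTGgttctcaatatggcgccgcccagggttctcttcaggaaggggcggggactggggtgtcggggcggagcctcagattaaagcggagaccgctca
No match to the NRF1 letters was found in this window. The E-box begins 49 bases before the start site, and 7.17% of the 32544 windows held CACGTG. Of the 11 member windows 4 did, which were this one, both of Alad and 1 of Uros. The GC box GGGCGG, read on both strands, was in 7 of the 11 and in 35.9% of all windows. The antioxidant response letters TGACNNNGC were in none of the 11 and in 12.4% of all windows. The 11 windows belong to 7 members, and Hmox1 and Fech are not among them. Windows of 1 gene can overlap. A match is a description of letters and no test of binding.

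Cpox encodes coproporphyrinogen oxidase, an enzyme of the mitochondrial intermembrane space. Its brighter probe set gave 45.8 and 121 in FSP27-deficient WAT, against 136 and 76.0 in wild-type WAT. The arrays overlapped, the duplicates of FSP27-deficient WAT differed by 2.64-fold, and 1 value lay below the lower quartile of its array. The other probe set gave 7.47 and 35.1 in FSP27-deficient WAT, against 59.0 and 59.4 in wild-type WAT. Both FSP27-deficient values of that probe set and that of wild-type replicate 1 were under the lower quartile for their array, and the size of such a difference is uncertain. Neither probe set reached a mean signal of 100, and no test was made in the main analysis. Without the filter Cpox had a log2 fold change of -0.36 and an adjusted p of 0.83 from limma. It was the only member whose mean was lower in FSP27-deficient WAT, and it was higher (0.21) without FSP27-deficient replicate 1.

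Ppox encodes protoporphyrinogen oxidase, the next enzyme on the mitochondrial side. It gave 553 and 661 in FSP27-deficient WAT, against 489 and 383 in wild-type WAT, without overlap. A log2 fold change of 0.47 was fitted (95% interval -0.06 to 0.99, adjusted p = 0.26 from limma). Its other probe set was dim and scattered, at 27.8 and 62.6 in FSP27-deficient WAT, against 8.09 and 161 in wild-type WAT, and was not tested.

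Fech encodes ferrochelatase, which inserts iron into protoporphyrin. Its brightest probe set gave 1956 and 2372 in FSP27-deficient WAT, against 1658 and 1714 in wild-type WAT. These did not overlap, with a log2 fold change of 0.35 (95% interval -0.06 to 0.76, adjusted p = 0.28 from limma). The other probe sets gave no common direction. The next brightest gave 1386 and 593 in FSP27-deficient WAT, against 986 and 622 in wild-type WAT, a log2 fold change of 0.21. The third gave 892 and 479 in FSP27-deficient WAT, against 998 and 799.9 in wild-type WAT, or -0.44 on the log2 scale (adjusted p = 0.38 among the probe sets tested). The last was near background on every array, with values of 7.90 and 11.4 in FSP27-deficient WAT, against 7.93 and 4.37 in wild-type WAT. The 2 middle probe sets overlapped between genotypes.

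**Figure D2:**
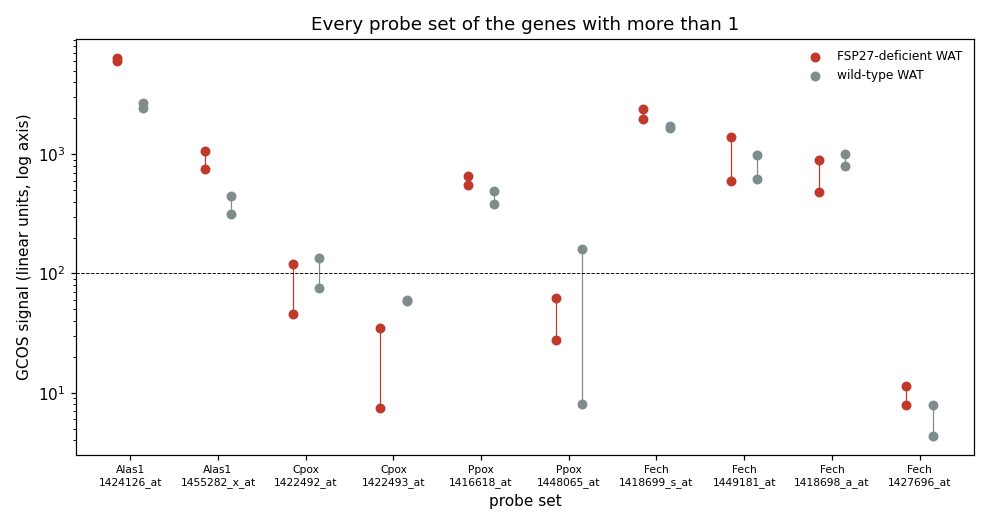
GCOS signal on a log axis for each of the 10 probe sets of Alas1, Cpox, Ppox and Fech, with the 2 arrays of a genotype as joined dots (red, FSP27-deficient WAT, and grey, wild-type WAT) and a dashed line at a signal of 100. Both probe sets of Alas1 show FSP27-deficient dots above wild-type dots, at ratios of 2.43 and 2.40, while those of Fech differ in direction.

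By place in the cell, the tested mitochondrial enzymes Alas1, Ppox and Fech had log2 fold changes of 1.28, 0.47 and 0.35, and the cytosolic enzymes Urod, Alad and Uros had 1.27, 0.40 and 0.30. Each compartment thus held 1 gene that passed the test and 2 that did not. The median over the 6 tested synthesis genes was 0.44, and it was 0.67 without wild-type replicate 1 and 0.34 without wild-type replicate 2.

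Hmox1 encodes heme oxygenase 1, the inducible enzyme that opens the heme ring. Its signal was 542 and 350.3 in FSP27-deficient WAT, against 327 and 237 in wild-type WAT. The genotypes did not overlap, but the lower FSP27-deficient array was close to the higher wild-type one, and the FSP27-deficient duplicates differed by 1.55-fold. On the log2 scale the fold change was 0.62 (95% interval -0.03 to 1.26, adjusted p = 0.22 from limma). Hmox2 encodes the constitutive heme oxygenase and is not among the 9. It gave 1039 and 999 in FSP27-deficient WAT, against 877 and 1213 in wild-type WAT, and overlapped (log2 fold change of -0.02, 95% interval -0.49 to 0.46, adjusted p = 0.98).

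Blvrb encodes a biliverdin and flavin reductase. It gave 1473 and 1928 in FSP27-deficient WAT, against 1392 and 1474 in wild-type WAT, where the lower FSP27-deficient and the higher wild-type array were level. The fitted log2 fold change was 0.23 (95% interval -0.21 to 0.67, adjusted p = 0.53 from limma). Blvra, the gene of the other biliverdin reductase, which is not among the 9, gave 1914 and 1546 in FSP27-deficient WAT, against 1249 and 1409 in wild-type WAT (log2 fold change of 0.37, 95% interval -0.06 to 0.81, adjusted p = 0.28). Neither Hmox1 nor Blvrb passed limma's test at an adjusted p under 0.05, in the main analysis or in any alternative. Before adjustment limma gave p-values of 0.060 for Hmox1 and 0.27 for Blvrb. That of Hmox1 was 0.027 after quantile normalization, 0.029 after median centring and 0.032 with a replicate block. In the other direction, limma gave 0.092 without the filter on low signals and 0.1 without the trend, and the methods' test gave 0.24. The log2 fold change of Hmox1 was 0.31 without FSP27-deficient replicate 1 and 0.92 without FSP27-deficient replicate 2. That of Blvrb was 0.04 without FSP27-deficient replicate 2.

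**Figure D3:**
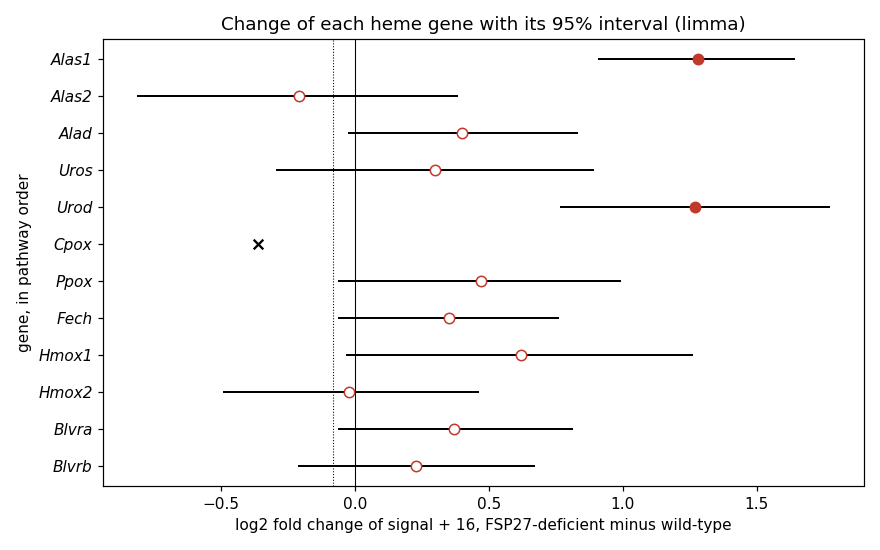
Difference in log2(signal + 16), FSP27-deficient minus wild-type WAT, for the 9 genes and for Alas2, Hmox2 and Blvra, in pathway order, with 95% intervals from limma (filled, adjusted p under 0.05, open, not past the threshold, and a cross for Cpox, which was not tested), a solid line at 0 and a dotted one at -0.08, where the median over all genes lies. The intervals of Alas1, 0.91 to 1.64, and Urod, 0.77 to 1.77, lie above 0, and all others drawn include 0.

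By the fold criterion used in the study, means about 1.4-fold apart or more with agreement of the duplicates, read here as both arrays of one genotype above both of the other, Alas1, Urod and Hmox1 were higher and no member was lower. They are 3 of the 8 members with a mean signal of at least 100, where 33.3% of all genes passed, 13.6% as higher and 19.7% as lower. The same 3 passed when the arrays numbered alike had each to differ by that much. Ppox, with a ratio of 1.39, passed as well after quantile normalization and after centring each array on its median, which made 4.

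Bulk tissue was measured, so that fewer cells of a type and less RNA per cell cannot be told apart. Beside each count of markers called here, 5.78% of all genes tested were called higher and 6.51% lower. Red cells carry Alas2 and hemoglobin, and of 8 red cell markers on the array only 3 reached a mean signal of 100. The signal summed over all 8 was 1155 and 810.4 in FSP27-deficient WAT, against 767 and 924 in wild-type WAT, with overlap. Of the 8, the signals of Hbb-b2, Epb42 and Rhag in FSP27-deficient WAT exceeded those in wild-type WAT, an order that held for 22.7% of all genes tested. Epb42 and Rhag were dim and not tested, with means of 34.65 and 48.66 in FSP27-deficient WAT, against 19.48 and 11.94 in wild-type WAT. The other 5 markers overlapped, and none of the 3 tested passed. Their part in the members' values was not tested. Macrophages are a site of heme breakdown and express Hmox1. Of 12 macrophage markers tested 6 were lower, 2 of them with any array left out, and none was higher, and the sum over 13 on the array was 6587 and 7739 in FSP27-deficient WAT, against 17314 and 15518 in wild-type WAT. Among them was Cd163, the scavenger receptor for hemoglobin, with a log2 fold change of -1.43 (adjusted p = 0.0051, a call lost at 0.11 without wild-type replicate 2). The part of these cells in the Hmox1 signal was not tested. The sum over 8 adipocyte markers was 265569 and 271874 in FSP27-deficient WAT, against 216873 and 247721 in wild-type WAT, without overlap. Of the 8, the signals of 5 in FSP27-deficient WAT exceeded those in wild-type WAT, where 22.7% of all genes tested had this order. None of these 5 passed the test, and Lep, the gene of leptin, was lower and passed. Other cell types differed too. Of 8 fibroblast markers 5 were lower, or 1 without wild-type replicate 1, with a ratio of summed signals of 0.565, and of 4 mesothelial markers 2 were lower, or 1 without wild-type replicate 1 or 2, with a ratio of 0.358. The ratio of sums was 0.794 for 7 endothelial markers. Of these 1, Pecam1, was lower, with a log2 fold change of -0.94, and -0.69 without FSP27-deficient replicate 1. That call did not hold with each array left out in turn. The ratio was 1.78 for 6 lymphocyte markers, of which 1 was bright enough to test and did not pass. The others averaged under 100 and differed in direction, with log2 fold changes from -1.13 to 2.13. The part of these cell types in the rises of Alas1 and Urod was not tested.

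Genes of succinyl-CoA and glycine metabolism concern the substrates of the first step and include enzymes that use as well as make them. Of 9 such genes, 6 were higher and none was lower, where 5.78% of all genes tested were called higher and 6.51% lower. Their median log2 fold change was 1.04, against -0.08 over all genes. Not all of the 6 kept the call with any of the 4 arrays left out. Dlst, a subunit of the complex that makes succinyl-CoA, gave 3076 and 3754 in FSP27-deficient WAT, against 1133 and 1213 in wild-type WAT (log2 fold change of 1.52, adjusted p = 3.5e-04). Oxct1, whose enzyme spends succinyl-CoA to activate ketone bodies, had a log2 fold change of 1.40 (adjusted p = 2.5e-04). Shmt1, which interconverts serine and glycine in the cytosol, gave 341 and 280.1 in FSP27-deficient WAT, against 115 and 33.3 in wild-type WAT (log2 fold change of 2.02, adjusted p = 0.028). The call was lost without FSP27-deficient replicate 1 (adjusted p = 0.080) and without wild-type replicate 2 (0.14, log2 fold change of 1.31).

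Of 15 tested genes of heme and porphyrin transport, binding or uptake, 3 were higher and 1 was lower. Over all genes tested 5.78% were called higher and 6.51% lower. The median of the 15 was 0.24, against -0.08 over all genes, and it was 0.10 without wild-type replicate 2. No call of this list held with each array left out in turn. Slc25a39, a mitochondrial carrier linked to heme synthesis in mouse and zebrafish, gave 15261 and 15477 in FSP27-deficient WAT, against 8956 and 6951 in wild-type WAT (log2 fold change of 0.96, adjusted p = 0.0031, and 0.059 without wild-type replicate 2). Tmem14c, an inner membrane protein needed for porphyrin handling in red cell precursors, gave 2805 and 3287 in FSP27-deficient WAT, against 1495 and 1919 in wild-type WAT (0.84 on the log2 scale, adjusted p = 0.015, and 0.19 without wild-type replicate 1). Pgrmc2, a heme chaperone, had a log2 fold change of 0.77 (adjusted p = 0.016, and 0.060 to 0.12 without FSP27-deficient replicate 1 or either wild-type array). Lrp1, a receptor that takes up hemopexin with its heme among many ligands, was lower, with a log2 fold change of -0.80 (adjusted p = 0.012, and 0.11 and 0.097 without wild-type replicate 1 and 2).

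Genes of iron are given in 2 lists, beside the 5.78% of all genes called higher and the 6.51% called lower. Of 10 genes of mitochondrial iron and iron-sulfur clusters, 2 were higher, the chaperone Hspa9 (0.77 on the log2 scale, adjusted p = 0.0098) and the assembly factor Isca1 (0.60, adjusted p = 0.040), and neither call held with each array left out in turn. That of Hspa9 was lost without either wild-type array (adjusted p = 0.080 and 0.092), and that of Isca1 without either of them or FSP27-deficient replicate 2 (0.075 to 0.30). The mitoferrins, which carry iron into mitochondria and were picked after their values were seen, did not pass, with log2 fold changes of -0.43 for Slc25a37 and -0.01 for Slc25a28. Of 14 genes of cellular iron uptake, storage and export, none was higher and 2 were lower, the ferroxidase Cp (-0.86, adjusted p = 0.021) and the metalloreductase Steap4 (-0.71, adjusted p = 0.041). Both calls were lost without FSP27-deficient replicate 1 or either wild-type array, at adjusted p of 0.070 to 0.20 for Cp and 0.14 to 0.21 for Steap4, which had -0.39 without FSP27-deficient replicate 1.

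**Figure D4:**
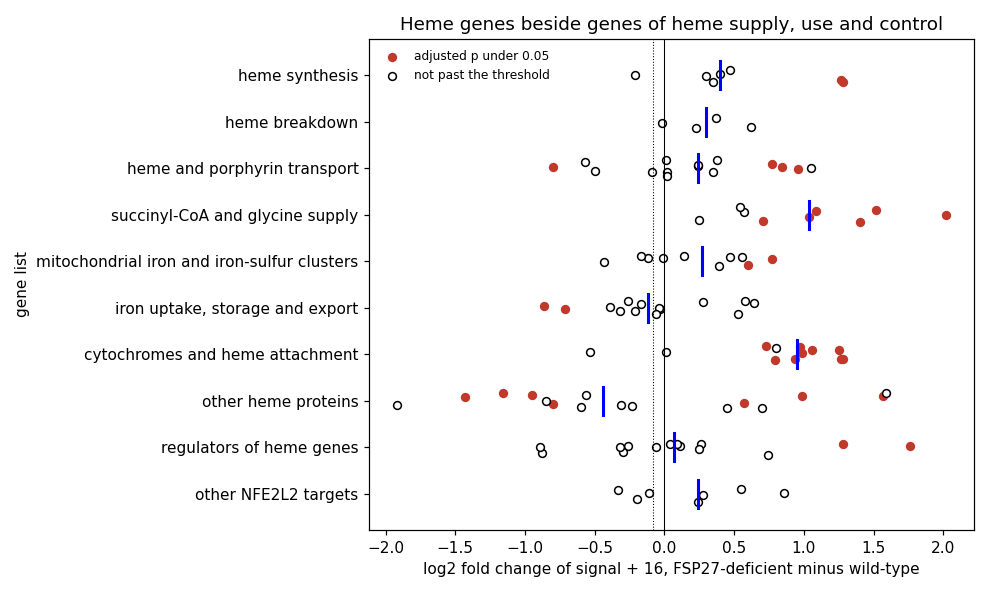
Difference in log2(signal + 16), FSP27-deficient minus wild-type WAT, where each point is a tested gene of 1 of 10 lists (filled, adjusted p under 0.05, open, not past the threshold), short bars for the medians of the lists and a dotted line for that of all genes, -0.08. The heme synthesis row, with Alas2 included, has 2 filled points near 1.28 and a median of 0.40, and the row of succinyl-CoA and glycine, which holds the succinyl-CoA user Oxct1, has 6 filled points and a median of 1.04.

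Heme is used by respiratory cytochromes and by other proteins. In the list of cytochromes, subunits of their complexes and heme attachment, 9 of 12 were higher and none was lower. Over all genes tested 5.78% were called higher and 6.51% lower. The median of the list was 0.95, against -0.08 over all genes. Not all of the 9 calls held with any array left out. Cycs, the gene of cytochrome c, which carries heme covalently, gave 18194 and 13462 in FSP27-deficient WAT, against 5889 and 7142 in wild-type WAT (log2 fold change of 1.27, adjusted p = 0.0010), and Cyc1, the heme-bearing cytochrome c1 of complex III, had 1.25 (adjusted p = 8.6e-04). Uqcrc1, a subunit of complex III without heme, had 1.28 (adjusted p = 6.2e-04). These were the largest values of their list, and the 1.28 of Alas1 and the 1.27 of Urod were the largest among the members. Both sets were picked by size, so that their closeness is no test of a link. The other tested synthesis genes had 0.30 to 0.47. Among 16 other heme proteins 3 were higher and 4 were lower, with a median of -0.44, which was -0.17 without FSP27-deficient replicate 1. Cat, the gene of catalase, gave 12140 and 10649 in FSP27-deficient WAT, against 6385 and 5092 in wild-type WAT (0.99 on the log2 scale, adjusted p = 0.0029), and Cyp27a1, a mitochondrial P450 that hydroxylates sterols, gave 436 and 463 in FSP27-deficient WAT, against 1331 and 1158 in wild-type WAT (-1.43, adjusted p = 0.0012). Both calls held with any array left out, and the other 5 calls of this list did not.

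Of 14 regulators, 2 were higher and none was lower, and both held with any array left out. Over all genes tested 12.3% were called, 5.78% as higher, and the median of the regulators was 0.07, against -0.08 over all genes. Ppargc1b, a coactivator of mitochondrial genes, gave 637 and 586 in FSP27-deficient WAT, against 207 and 138 in wild-type WAT (log2 fold change of 1.76, adjusted p = 0.0020). Lonp1, the mitochondrial protease that degrades the Alas1 protein, had 1.28 (adjusted p = 0.0010). The others named here were picked after their values were seen. Ppargc1a, the coactivator known to induce Alas1 in mouse liver, gave 209 and 161 in FSP27-deficient WAT, against 205 and 110.3 in wild-type WAT, with overlap (adjusted p = 0.78). Bach1, the heme-sensing repressor of Hmox1, gave 420.0 and 280.2 in FSP27-deficient WAT, against 561 and 755 in wild-type WAT, without overlap (log2 fold change of -0.89, adjusted p = 0.051). Nfe2l2, which encodes the activator of Hmox1 known as NRF2, had a log2 fold change of 0.04, and of 7 of its other targets tested none passed limma at an adjusted p under 0.05, with 2 at an unadjusted p under 0.05 from limma and 2 from the methods' test.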

How the data were processed

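GCOS, the software of the scanner's maker, gave the authors an intensity, or signal, for each of 22690 probe sets, deposited on a linear scale. Its version and scaling target are not stated in the sources. The platform's annotation, whose symbols a check of gene IDs against RefSeq's table left as they were, gave 1 symbol for 20393 probe sets, several for 691, which were not used, and none here for 1606, 64 of all being controls.

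Each gene was read from its probe set with the highest mean signal. FSP27-deficient arrays were set against wild-type arrays on log2(signal + 16) by limma 3.58.1 under R 4.3.3, with eBayes letting the variance follow the signal, for the 8523 genes that averaged at least 100. P-values were adjusted by Benjamini-Hochberg over these genes, at a threshold of 0.05. There were 2 residual degrees of freedom, and 12.1 once the prior was added. The same fit was run on 13225 probe sets. By exact permutation of 4 arrays, two-sided, the smallest possible p is 0.333. The steps were tested on simulated data. The members, lists and tests were chosen with earlier results of these data known. Named genes were the members, Alas2, Hmox2, Blvra and Cidec, and genes drawn from the up to 3 called per list and direction with the largest change. Not all of those were named, such as Lyz2 among macrophage markers and Cyp2f2 among other heme proteins. Adipoq, Hbb-b2, Epb42, Rhag, Slc25a37, Slc25a28, Ppargc1a, Bach1 and Nfe2l2 were named after their values were seen. As alternatives, the pseudocount was set to 1 or 64 and the filter to 0 or 200, besides quantile normalization, median centring, other ways to combine probe sets, no trend, the t-test of the methods, a replicate block and each array left out. Promoters were RefSeq's (GRCm38.p6). The promoters of Hmox1 and Fech were not analysed here.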

Additional observations from a re-analysis of the deposited data

How the results depend on the processing

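The calls of Alas1 and Urod needed the trend of variance on signal. Without it limma called 1 gene of 8523 and 0 synthesis members (adjusted p = 0.074 for Alas1 and 0.096 for Urod, with 1861 genes under 0.05 unadjusted), and the methods' test with Benjamini-Hochberg adjustment called 0 genes and 0 synthesis members (0.24 and 0.30, with 1309 genes under 0.05 unadjusted, Alas1 and Urod among them). Under the other 14 alternatives both were called, with log2 fold changes over all 16 of 1.16 to 1.35 for Alas1 and 1.07 to 1.47 for Urod. The count of synthesis members called was 2 to 2, and of breakdown members 0 to 0, with each array left out, while the count of all genes called was 408 to 1377, at 408 without wild-type replicate 1 and 470.0 without wild-type replicate 2. In those fits the genotype with 1 array borrows its spread from the pair of the other genotype. Uros alone of the tested members changed sign, to -0.10 without wild-type replicate 2, and without wild-type replicate 1 it had 0.70. The fold criterion was passed by 2834 genes, and by 1867 where each duplicate pair had to reach the fold. The arrays share only a replicate number, and the correlation across genes of the difference between replicates 1 and 2 was 0.0651 between genotypes. With the replicate block limma called 1466 genes, the same 2 synthesis members and 0 of the 2 breakdown members. Arrays give no count of reads, so that depth is limited only by signal over background, which bears most on Cpox.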
